A study of Mus musculus with 9 samples.

Results

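The insulin genes Ins1 and Ins2 and the amylin gene Iapp are described here across mouse pancreatic islets, 3 genes of the 25611 rows of the count table, taken by their gene symbols. Each symbol had a single row, and all 3 genes passed the filter on low counts. RNA of islets picked by hand from mice aged 4 weeks was sequenced. The mice labelled knockout had the genotype Pdx1-Cre;Glis3fl/fl (3 libraries), and the control mice had Glis3fl/fl without Cre (4 libraries), so both groups carried the floxed allele. Per the design text each library came from its own mouse. Binding of Glis3, a zinc finger transcription factor, was mapped by chromatin immunoprecipitation with an antibody against GFP in the islets of Glis3-eGFP mice aged 8 weeks (1 list of 21254 peaks, no replicate). Cre driven by Pdx1 regulatory sequence acts in the whole epithelium of the developing pancreas, exocrine cells included. No mice with the driver and without the floxed allele were analysed here, so effects of Cre and of the deletion cannot be told apart.

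Insulin is made by the beta cells of the islet as a preprohormone that is folded in the endoplasmic reticulum, cut by prohormone convertases in the secretory granule and stored with zinc. Mice carry a pair of insulin genes. Ins2 is the counterpart of the human insulin gene, and Ins1 is a rodent copy that arose from a reverse-transcribed Ins2 transcript. Iapp encodes amylin, a peptide of the calcitonin family that is packed into the same granules and released together with insulin. Beta cell transcription factors such as Pdx1, Mafa and Neurod1 bind the promoters of these genes.

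Total counts ran from 12099365 to 22578480 in the labelled knockout libraries and from 18297697 to 48054551 in the control libraries. The Glis3 count was no lower in labelled knockouts than in controls, with 52.1, 52.7 and 57.8 CPM (counts divided by library size in the usual CPM unit, scaled with TMM factors, which correct for library composition) against 39.5, 46.8, 31.2 and 33.6 CPM in controls. These counts cover all exons, deleted or not, so they cannot show whether the deletion took place, and the mice are named by their label. The log2 fold change of Glis3 was 0.52 (SE 0.14, edgeR adjusted p = 0.0257, and 0.0505 with the replicate number as a block). Leaving out labelled knockout 1 ended the Glis3 call (edgeR adjusted p = 0.0501), as did leaving out labelled knockout 3 (0.117), control 3 (0.0945) or control 4 (0.085) or adding an acinar covariate (0.0928), with a range of 0.00948 to 0.117 over all alternatives.

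Each of the 3 genes had a Glis3 peak at its start, and the bases under those peaks are shown first because they are where the binding data and the expression data meet. Positions are mm10, and a gene's start is the 5′ end of its span in the count table. Ins1 (Entrez 16333, chromosome 19, 52264297 to 52265009, plus strand) had a 200 bp peak at 52264158 to 52264357, which reached across its start, with the midpoint 40 bp upstream. Ins2 (Entrez 16334, chromosome 7, 142678656 to 142679726, minus strand) had a peak at 142679797 to 142679996, with the midpoint 170 bp upstream. Iapp (Entrez 15874, chromosome 6, 142298425 to 142303819, plus strand) had a peak at 142298224 to 142298423, with the midpoint 102 bp upstream. Of the 14529 genes tested for expression, 48.7% had a peak midpoint within 250 bp of their start, so a peak at the start was common among genes expressed in islets. The 250 bases before the start are given 5′ to 3′ for the 2 of 3 members that matched the RefSeq promoter table (GRCm38.p6), with the bases under the Glis3 peak in capitals. The Ins1 stretch is chr19:52264047-52264296 and the Iapp stretch is chr6:142298175-142298424, both on the plus strand.
Ins1: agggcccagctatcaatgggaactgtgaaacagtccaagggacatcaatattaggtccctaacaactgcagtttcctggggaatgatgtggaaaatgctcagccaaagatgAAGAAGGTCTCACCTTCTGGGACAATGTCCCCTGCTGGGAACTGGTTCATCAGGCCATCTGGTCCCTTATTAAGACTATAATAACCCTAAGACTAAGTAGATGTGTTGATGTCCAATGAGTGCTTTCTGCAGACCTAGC
Iapp: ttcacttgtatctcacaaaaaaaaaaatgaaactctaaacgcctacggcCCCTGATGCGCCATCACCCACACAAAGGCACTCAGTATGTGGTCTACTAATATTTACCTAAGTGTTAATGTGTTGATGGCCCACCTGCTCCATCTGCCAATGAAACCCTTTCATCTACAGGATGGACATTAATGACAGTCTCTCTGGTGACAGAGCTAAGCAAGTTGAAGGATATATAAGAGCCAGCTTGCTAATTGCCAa

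The peaks covered 139 of the printed Ins1 bases and 200 of the printed Iapp bases. The core of the Glis binding site, searched as TGGGGGG on both strands, was in neither stretch and in 7.67% of 32851 RefSeq promoters over the same 250 bases. That says only that these letters are not in this window. An E box (CANNTG, the site of basic helix-loop-helix factors such as Neurod1) lay under the Ins1 peak as CATCTG, from 84 to 79 bp upstream. A further E box of Ins1, CAACTG, lay outside the peak, from 188 to 183 bp upstream. Under the Iapp peak were CACCTG, from 120 to 115 bp upstream, and CATCTG, from 111 to 106 bp upstream. The homeodomain A box (TAAT on either strand, the core of sites bound by Pdx1 and Nkx6-1) matched 3 times before Ins1, 2 of them under the peak from 71 to 58 bp upstream. It matched 5 times before Iapp, all under the peak, and 2 of these overlapped each other between 74 and 69 bp upstream. The Maf pattern (TGC and GC with 6 free bases between them, on either strand) matched neither stretch. E boxes were in 66.2%, A boxes in 54.9% and the Maf pattern in 38.1% of all promoters, so these matches are descriptions of the stretches and not of sites in use.

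Within 100 kb of the start, the peaks numbered 2 for Ins1, 2 for Ins2 and 7 for Iapp. Among tested genes 95.0% had at least 1 peak in such a window, 84.3% had at least 2 and 25.0% had at least 7, and the median was 4. The second Ins1 peak was intergenic, 11.8 kb upstream (chromosome 19, 52252407 to 52252606). No other gene of the count table lay within 100 kb of Ins1. The second Ins2 peak was 20.8 kb downstream of its start (chromosome 7, 142658840 to 142659039), inside the span of the growth factor gene Igf2 and 741 bp from the start of the antisense gene Igf2os. Of the other Iapp peaks, 4 lay 77.9, 16.4 and 8.8 kb upstream and 7.81 kb downstream. The 3 nearest to Iapp among these, and the peak at its start, lay inside the span of Slco1a5 on the other strand. The peak 77.9 kb upstream lay in no gene span and was 34411 bp from the start of Slco1a6, nearer than to Iapp. The peaks at 47.4 and 88.7 kb downstream were 115 bp from the start of Pyroxd1 and 78 bp from the start of Recql, far nearer to those genes than to Iapp, and the second also lay beside the start of Golt1b. The authors' peaks carried no score, so they cannot be ranked by strength.

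**Figure D1:**
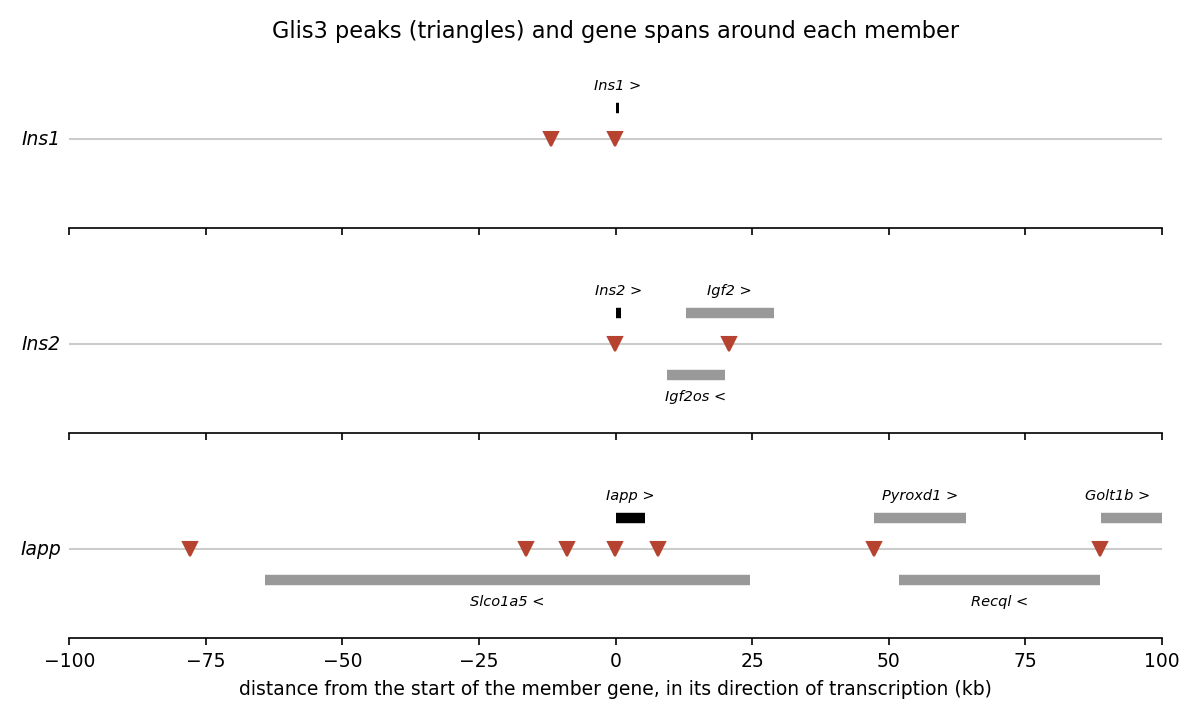
Glis3 peak midpoints (triangles) within 100 kb of the start of Ins1, Ins2 and Iapp, against distance in kb in each gene's own direction of transcription, with gene spans above the line (same strand as the member) or below it (other strand); Mir483, inside Igf2, is not drawn. Each gene has a peak at its start, and Iapp has 7 peaks in the window against 2 for each insulin gene.

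Both insulin genes fell and Iapp rose in the labelled knockout islets. Ins2 had 64374, 84872 and 121710 CPM in labelled knockouts 1 to 3, against 240394, 208317, 291765 and 349459 CPM in controls 1 to 4. The highest labelled knockout, number 3, was still below the lowest control, number 2. The means were 90319 ± 29054 CPM (SD, n = 3) in labelled knockouts and 272484 ± 61763 CPM (SD, n = 4) in controls. Ins2 was thus 3.02-fold lower, with a log2 change of −1.59 (SE 0.23) and an edgeR adjusted p of 4.0e-04.

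Ins1 followed the same order of libraries within the labelled knockouts. Its CPM was 35943, 43934 and 76569 in labelled knockouts 1 to 3, against 99611, 97061, 148401 and 169179 in controls 1 to 4. Labelled knockout 3 was again the highest of its group and came closest to controls 1 and 2, but the groups did not overlap. Means differed 2.47-fold, with a log2 change for Ins1 of −1.30 (SE 0.28) and an edgeR adjusted p of 0.00751, and its relative spread was the widest of the 3 genes, with an SD of 41.3% of the mean in labelled knockouts and 28.0% in controls.

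Iapp went the other way and varied least. Its CPM was 87077, 72039 and 98532 in labelled knockouts 1 to 3, against 22930, 20480, 24385 and 28168 in controls 1 to 4. Every labelled knockout was above every control by a wide margin, the lowest labelled knockout being number 2. Iapp was 3.58-fold higher (log2 1.84, SE 0.16, edgeR adjusted p = 3.8e-06), with an SD of 15.5% of the mean in labelled knockouts and 13.4% in controls. Counting error was small beside these spreads, since the lowest count of any member in any library was 400534 (95% Poisson interval 399295 to 401776).

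Among all 14529 tested genes 5.25% were called lower, 8.73% higher and 14.0% either way at an adjusted p under 0.05, and in 26.6% the CPM of the groups did not overlap. A log2 fold change of at least the size of that of Ins1 was seen in 6.81% of tested genes, of Ins2 in 4.36% and of Iapp in 3.19%. All 3 calls held over the alternatives tried, with the log2 change between −1.72 and −1.09 for Ins1 (highest adjusted p 0.0466, without labelled knockout 2), between −1.90 and −1.40 for Ins2 and between 1.70 and 2.02 for Iapp. Ins1 and Ins2 are close copies, and the sources used here do not say how reads that match both were counted, so the split between them is uncertain. In whole islets, fewer beta cells and less RNA per beta cell cannot be told apart.

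**Figure D2:**
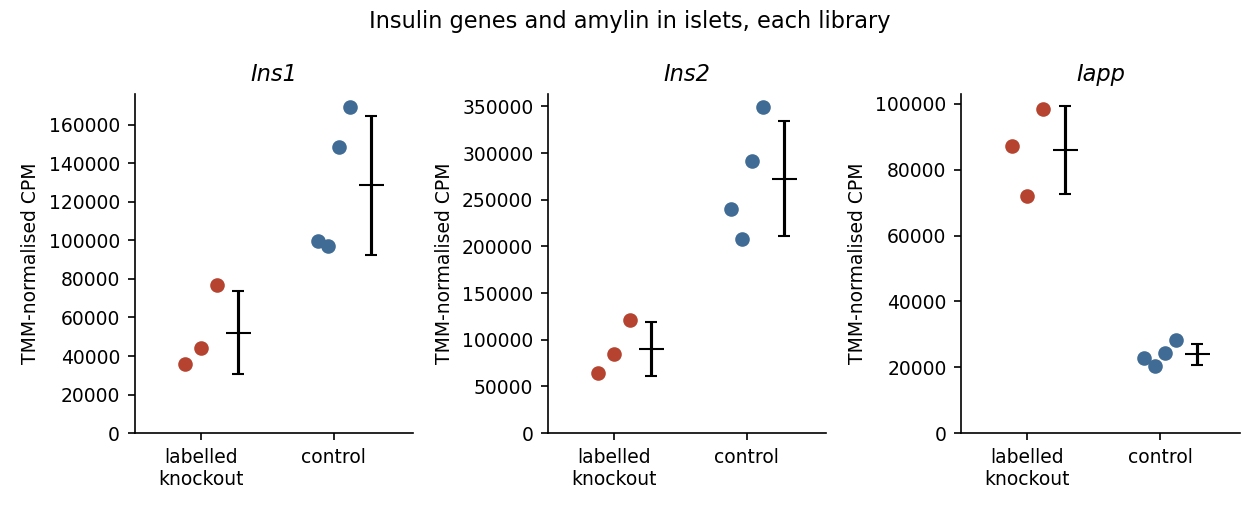
TMM-normalised CPM of Ins1, Ins2 and Iapp in each library (points), with the group mean and SD beside them (bars), for 3 labelled knockout and 4 control libraries. Labelled knockouts sit below all controls for Ins1 and Ins2 and above all controls for Iapp.

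Together the 3 genes took a smaller part of the library in labelled knockouts. Their summed share was 20.9%, 22.3% and 29.7% of all counts in labelled knockouts 1 to 3, against 37.6%, 34.9%, 41.7% and 44.4% in controls 1 to 4. The mean share was 24.3 ± 4.74% (SD, n = 3) in labelled knockouts and 39.6 ± 4.24% (SD, n = 4) in controls, and the groups did not overlap. The exact 2-sided permutation test of that difference, with p as 2 times the smaller tail, gave p = 0.0571. That is the smallest value this form of the test allows for 3 against 4 libraries. Ins2 took 7.16 to 12.2% of counts in labelled knockouts and 22.3 to 28.4% in controls. Ins1 took 4.00 to 7.66% in labelled knockouts and 10.3 to 13.7% in controls. Iapp took 7.99 to 9.85% in labelled knockouts and 2.19 to 2.37% in controls. These shares are of reads and are not divided by transcript length, so they do not rank the genes by number of transcripts.

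**Figure D3:**
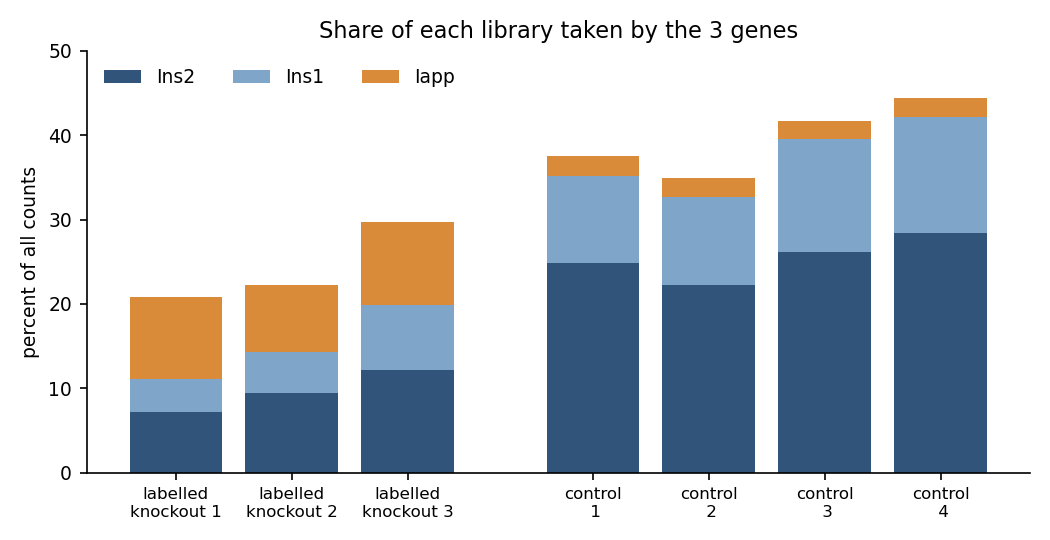
Percent of all counts in each library that fell on Ins2 (bottom), Ins1 (middle) and Iapp (top), for labelled knockouts 1 to 3 and controls 1 to 4. The stack reaches 20.9 to 29.7% in labelled knockouts and 34.9 to 44.4% in controls, and the Iapp segment is wider in every labelled knockout.

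Ratios within a library need no scaling between libraries, and they were compared for the 3 pairs of members. The ratio of Iapp to Ins2 counts was 1.35, 0.849 and 0.810 in labelled knockouts 1 to 3, against 0.0954, 0.0983, 0.0836 and 0.0806 in controls 1 to 4. The ratio was therefore about level with 1 in labelled knockouts, where labelled knockout 1 had more Iapp than Ins2 counts, and every control had over 10 times more Ins2 than Iapp counts. On the log2 scale the difference was 3.45, or 10.9-fold. The ratio of Iapp to Ins1 counts was 2.42, 1.64 and 1.29 in labelled knockouts 1 to 3, against 0.230, 0.211, 0.164 and 0.166 in controls 1 to 4. That difference was 3.17 on the log2 scale, or 9.02-fold, and again the groups were far apart.

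The ratio between the insulin genes moved far less. Ins1 to Ins2 counts stood at 0.558, 0.518 and 0.629 in labelled knockouts 1 to 3, against 0.414, 0.466, 0.509 and 0.484 in controls 1 to 4. Labelled knockout 2 was next to control 3, and the groups were separate by a narrow gap. The mean log2 ratio was −0.82 ± 0.14 (SD, n = 3) in labelled knockouts and −1.10 ± 0.13 (SD, n = 4) in controls, a difference of 0.28 or 1.21-fold. The exact 2-sided permutation test gave p = 0.0571 for each of the 3 ratios (0.0571 after Benjamini-Hochberg adjustment over them). With p as 2 times the smaller tail this is the smallest value possible here. This form of the test therefore cannot separate the large differences from the small one. The only other form run, on the same-number differences given at the end, also stood at its smallest possible value for each ratio.

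**Figure D4:**
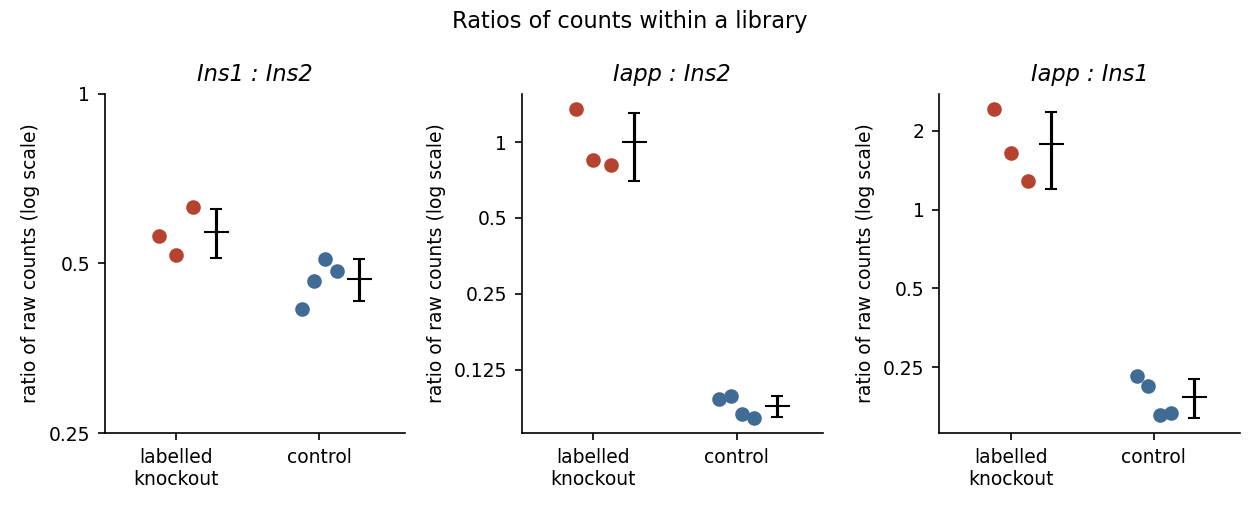
Ratios of raw counts between pairs of members in each library, on log2-spaced axes (points, with the group mean and SD beside them). Iapp against either insulin gene differs by about an order of magnitude between the groups, while Ins1 against Ins2 differs by 1.21-fold.

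Among genes with a mean of at least 1 CPM, those whose profile was most like each member were found by the root mean square (RMS) difference between centred log2(CPM + 0.5) values over the 7 libraries. For Ins1 the nearest was the predicted gene Gm5069 (RMS difference 0.144), and Ins2 came second (0.178). Gm5069 was low, with 2.67 to 5.14 CPM in labelled knockouts and 7.35 to 13.8 CPM in controls. For Ins2 the nearest was B830017H08Rik (0.157), and Ins1 came second (0.178). B830017H08Rik (chromosome 16, 17833119 to 17835019) had 28.1, 28.9 and 44.3 CPM in labelled knockouts 1 to 3, against 74.5, 84.4, 115 and 140 CPM in controls 1 to 4. Its highest labelled knockout was number 3 and its highest control number 4, as for both insulin genes. B830017H08Rik was next after Ins2 for Ins1 (0.184), followed by the interferon regulatory factor gene Irf5 (0.190, log2 −1.41, edgeR adjusted p = 0.1, range over alternatives 0.0409 to 0.242) and the dehydrogenase gene Dhrs4 (0.199, log2 −1.11). Irf5 had only 0.594 to 1.42 CPM in labelled knockouts and 1.48 to 3.35 CPM in controls, so the added 0.5 CPM weighs on its profile. The list for Ins2 went on with Gas2 (0.205), Gm5069 (0.206) and Nrtn, which encodes the growth factor neurturin (0.218).

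The 5 genes nearest to Iapp were all higher in labelled knockouts. Gsto1, a glutathione transferase gene of the omega class, differed from Iapp by an RMS of only 0.0561. Its CPM was 44.5, 37.6 and 49.4 in labelled knockouts 1 to 3, against 11.1, 10.9, 11.4 and 14.1 in controls 1 to 4, with labelled knockout 2 and control 2 the lowest of their groups as for Iapp. The log2 change was 1.88 for Gsto1, 1.97 for Tmem179 (RMS 0.124), 1.63 for the sialyltransferase gene St8sia3 (RMS 0.150), 1.82 for the granin gene Scg3 (RMS 0.159) and 1.58 for Nenf, which encodes the secreted protein neudesin (RMS 0.165). Between Iapp and the insulin genes the RMS difference was 1.6 for Ins1 and 1.72 for Ins2. A likeness over 7 libraries in 2 groups mostly records the group difference and is given as a description.

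Genes that fold and process prohormones mostly rose. Of 16 tested, 10 were higher, 2 lower and 4 did not pass, with a median log2 change of 0.61 against 0.0065 over all tested genes. Of all tested genes 5.25% were lower and 8.73% higher, which is the background for this and the later lists. Pcsk1, the convertase that makes the first cut in proinsulin, had 600.8, 557.4 and 646.4 CPM in labelled knockouts 1 to 3, against 212.9, 225.5, 217.1 and 213.9 CPM in controls 1 to 4 (log2 1.47, SE 0.11, edgeR adjusted p = 1.8e-06). Pcsk2, the other granule convertase, rose by 0.75 on the log2 scale, and Pam, which adds the C-terminal amide that active amylin carries, rose by 1.27. Slc30a8, the transporter that loads zinc into insulin granules, fell by 0.95, and Ero1lb, an oxidase that helps proinsulin form its disulfide bonds, fell by 0.61. Without labelled knockout 3, or with an acinar covariate, the count of higher genes was 6, and without labelled knockout 1, labelled knockout 2 or control 3, or with that covariate, that of lower genes was 1.

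Transcription factors that bind insulin gene promoters went both ways. Of 18 tested, 4 were lower, 2 higher and 12 did not pass, with a median log2 change of −0.14. Nkx6-1, a homeodomain factor of the beta cell, fell by 1.21 on the log2 scale (SE 0.18, edgeR adjusted p = 5.4e-04). Mafa, a leucine zipper activator of insulin genes, had 18.9, 51.6 and 25.8 CPM in labelled knockouts 1 to 3, against 97.4, 126.1, 136.9 and 85.8 CPM in controls 1 to 4 (log2 −1.79, SE 0.35, edgeR adjusted p = 0.0135). Labelled knockout 3, with the most insulin counts of its group, was not the highest of its group for Mafa. Leaving out control 1 ended the call of Mafa (edgeR adjusted p = 0.0503, range over alternatives 3.62e-05 to 0.0503). Isl1, another homeodomain factor, rose by 0.73. Neurod1 (log2 −0.58) and Rfx6 (0.45) were also called, and were named after their values were seen. The count of lower factors was 2 without labelled knockout 3 or scaled by library size alone. The count of higher factors was 1 without labelled knockout 1, labelled knockout 3, control 1 or control 4, or with an acinar covariate.

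Of 15 other genes of beta cell function, 6 were lower, 4 higher and 5 did not pass (median −0.58). Slc2a2, the glucose transporter of the mouse beta cell, had 64.2, 82.5 and 133.1 CPM in labelled knockouts 1 to 3, against 615.6, 535.0, 458.1 and 488.8 CPM in controls 1 to 4 (log2 −2.49, SE 0.23, edgeR adjusted p = 8.4e-06). Within the labelled knockouts its order of libraries was that of the insulin genes, but within the controls it was not. Its highest control was number 1, against number 4 for both insulin genes. Sytl4, a granule docking gene, fell by 1.38 and the incretin receptor gene Gipr by 1.12. Ptprn, which encodes a granule membrane phosphatase relative, rose by 1.45, as Iapp did. Without labelled knockout 1 the count of higher genes was 2. The summed level of the 15 genes was 7919 to 8188 CPM in labelled knockouts and 7136 to 7999 CPM in controls, so these ranges overlapped. Without Ptprn it was 5863 to 6391 CPM in labelled knockouts and 6382 to 7444 CPM in controls, again with overlap.

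A relative of amylin, Calca, and the receptor parts Ramp1 and Ramp2 rose with Iapp. Of 5 tested genes of the calcitonin family and its receptors, 3 were higher, 0 were lower and 2 did not pass. Ramp1 and Ramp2 encode accessory proteins that turn the calcitonin receptor and its relative into receptors for amylin, CGRP or adrenomedullin. Ramp2 had 83.6, 77.2 and 85.6 CPM in labelled knockouts 1 to 3, against 16.1, 21.8, 25.8 and 21.9 CPM in controls 1 to 4 (log2 1.94, SE 0.15, edgeR adjusted p = 1.3e-06). Ramp1 rose by 2.14 (SE 0.22, edgeR adjusted p = 2.0e-05). Calca, the gene of calcitonin and CGRP, had 50.4, 13.4 and 12.98 CPM in labelled knockouts 1 to 3, against 1.74, 1.26, 0.913 and 1.10 CPM in controls 1 to 4. Labelled knockout 1 was far above the others for Calca (log2 4.31, SE 0.53, edgeR adjusted p = 6.2e-04). Without that library the log2 change of Calca was 3.36 (edgeR adjusted p = 1.52e-05). Calcr, the receptor that Ramp proteins join to form the amylin receptor, did not pass the filter on low counts, with 0 to 6 counts in labelled knockout libraries and 1 to 12 in control libraries.

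Genes of the insulin family and its receptors were lower in 2 of 9 tested members and higher in 0, with 7 not passing (median −0.35). The background over all tested genes was 5.25% lower and 8.73% higher. Insrr, a receptor related to the insulin receptor, had 155.6, 102.0 and 147.3 CPM in labelled knockouts 1 to 3, against 430.8, 426.8, 341.1 and 351.5 CPM in controls 1 to 4 (log2 −1.52, SE 0.17, edgeR adjusted p = 3.1e-05). Igf1r, the receptor of insulin-like growth factor, fell by 0.68 (edgeR adjusted p = 0.00476), and missed the threshold scaled by library size alone (0.0503, range over alternatives 1.91e-04 to 0.0503). The insulin receptor gene Insr did not pass (log2 −0.35, edgeR adjusted p = 0.146). Of 5 tested genes linked to breakdown of insulin and amylin, 3 were higher. They were Bace2 (log2 1.12), which encodes a protease of the beta cell, and the lysosomal protease genes Ctsb (0.95) and Ctsd (0.94). The insulin-degrading enzyme gene Ide did not pass (log2 0.12, edgeR adjusted p = 0.588). Of 8 insulin mRNA binding proteins none was called by edgeR, against 1 by DESeq2, 1 by limma-voom and 1 at an unadjusted p under 0.05, and 1 was lower without labelled knockout 2, without control 1, with the replicate number as a block or under RLE factors and both scalings that leave out abundant genes. Scaled by library size alone, the count of lower insulin family genes was 1.

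**Figure D5:**
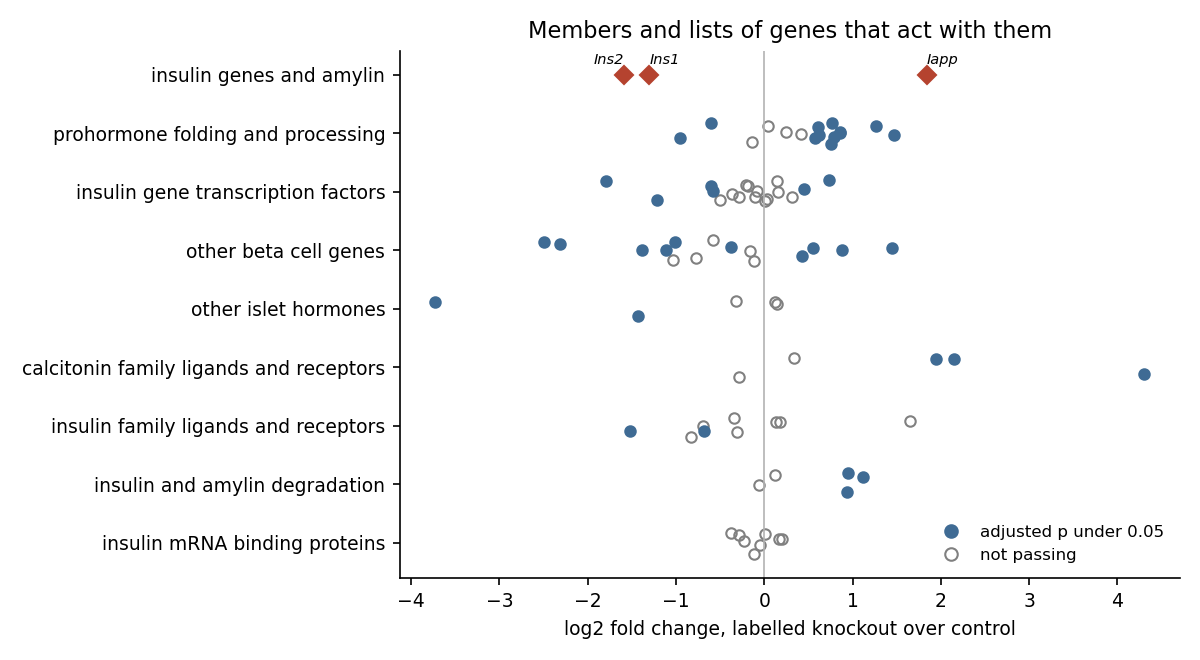
Log2 fold changes, labelled knockout over control, of Ins1, Ins2 and Iapp (diamonds) and of the tested genes of 8 lists (circles, filled where the adjusted p was under 0.05; vertical scatter within a row has no meaning). Prohormone processing genes lie mostly right of 0, with 10 higher and 2 lower, and the calcitonin family has 3 filled points, all higher.

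Among 5 other islet hormones 2 were lower and 3 did not pass. Ppy, pancreatic polypeptide, and Pyy, peptide YY, were the lower ones, with log2 changes of −3.73 and −1.43. Gcg, glucagon, had 39971, 40711 and 44046 CPM in labelled knockouts 1 to 3, against 45130, 35660, 52824 and 73317 CPM in controls 1 to 4 (log2 −0.32, SE 0.20, edgeR adjusted p = 0.343). Sst, somatostatin, did not pass (log2 0.12, SE 0.16, edgeR adjusted p = 0.677), but passed scaled by library size alone (log2 0.32, edgeR adjusted p = 0.0416, range over alternatives 0.0416 to 0.963).

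Of 5 tested genes that neighbour a member on the chromosome, Golt1b and Slco1a5 were higher and 3 did not pass. The share called higher over all tested genes was 8.73%. Igf2, next to Ins2, had 1.41, 6.70 and 5.71 CPM in labelled knockouts 1 to 3, against 8.12, 7.08, 8.89 and 9.28 CPM in controls 1 to 4, and did not pass (log2 −0.83, SE 0.38, edgeR adjusted p = 0.175). Igf2os, a gene antisense to Igf2, had at most 2 counts in a library, and the microRNA gene Mir483 had 0. Near Iapp, Golt1b rose slightly (log2 0.40, SE 0.11, edgeR adjusted p = 0.022), and Pyroxd1 (0.35, edgeR adjusted p = 0.626) and Recql (0.095, edgeR adjusted p = 0.813) did not pass. Pyroxd1 and Recql changed sign under some alternatives. The Golt1b call was lost without labelled knockout 1 (edgeR adjusted p = 0.0749), labelled knockout 3 (0.0899), control 2 (0.054), control 3 (0.0655) or control 4 (0.0557), with a range of 0.00321 to 0.0899. Slco1a5, an organic anion transporter gene, spans Iapp on the other strand. It had 8.09, 7.34 and 7.48 CPM in labelled knockouts 1 to 3, against 2.58, 1.5, 1.03 and 2.20 CPM in controls 1 to 4 (log2 2.05, SE 0.33, edgeR adjusted p = 9.3e-04). Its counts were 0.0076 to 0.0102% of those of Iapp in labelled knockouts and 0.00424 to 0.0112% in controls. Whether counting used strand was not given, so reads of Slco1a5 and of Iapp cannot be told apart there.

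Markers of other cell types give the setting of these bulk values, and, apart from a fit with the acinar level as a covariate, their part in the results on insulin and amylin was not tested. Their counts stand against 5.25% lower and 8.73% higher over all tested genes. The summed level of 10 alpha cell markers was 6076 to 6644 CPM in labelled knockouts and 1769 to 2768 CPM in controls, with 5 higher, 3 lower and 2 not passing. Most of that sum was Ttr, and without it the sum was 818 to 924 CPM in labelled knockouts and 357 to 481 CPM in controls. Among the higher ones were Gc (log2 2.21), Slc38a5 (2.46), Ttr (1.65) and Sv2b (0.95). Sv2b was not called with labelled knockout 1 left out (edgeR adjusted p = 0.0667, range 0.00142 to 0.0667). Lower alpha cell markers numbered 0 without labelled knockout 1 or scaled by library size alone, and 1 without labelled knockout 2, labelled knockout 3, control 3 or control 4, with the replicate block, with an acinar covariate or by limma-voom. Without labelled knockout 1, 3 were higher. Delta cell markers summed to 1449 to 2235 CPM in labelled knockouts and 993 to 1379 CPM in controls. Rbp4 alone carried that difference. Without it the sum was 502 to 664 CPM in labelled knockouts and 756 to 993 CPM in controls, the opposite direction with no overlap. Most of what was left was Hadh, with 439 to 607 CPM in labelled knockouts and 718 to 955 CPM in controls. Of the delta cell markers, 3 of 6 were higher, Rbp4 (log2 2.12), Ptprz1 (1.92) and Bcl11a (0.63), and Hadh was lower (−0.67). Hhex (log2 −0.39, edgeR adjusted p = 0.182) and Ghsr (log2 −2.77, edgeR adjusted p = 0.0862) pointed lower but did not pass. Bcl11a was not called with the replicate block (edgeR adjusted p = 0.0874), with an acinar covariate (0.0626) or without labelled knockout 1 or any 1 of the 4 controls (0.0659 to 0.142, range over alternatives 0.016 to 0.142), and 2 delta cell markers were lower without labelled knockout 3, with the replicate block or by limma-voom.

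Acinar markers summed to 2339 to 13301 CPM in labelled knockouts and 762 to 4731 CPM in controls, with overlap between the groups. None of 15 tested was called by edgeR, DESeq2 or limma-voom, and 0 had an unadjusted p under 0.05, but 12 were higher with the replicate number as a block. The highest sums were in labelled knockout 2 and in controls 2 and 4. With the acinar mean as a covariate the log2 change was −1.28 for Ins1, −1.60 for Ins2 and 1.89 for Iapp, and all 3 calls held. Duct markers summed to 784 to 972 CPM in labelled knockouts and 265 to 320 CPM in controls, carried by Spp1, osteopontin (log2 4.29), the 1 called of 7 (2 without labelled knockout 3 or by DESeq2). Without Spp1 the duct sum was 278 to 337 CPM in labelled knockouts and 248 to 283 CPM in controls, with overlap. The share called either way over all tested genes was 14.0%, so 1 called duct marker of 7 is near that background. Endothelial markers summed to 687 to 830 CPM in labelled knockouts and 625 to 700 CPM in controls, with 0 of 8 called by edgeR, DESeq2 or limma-voom and 0 at an unadjusted p under 0.05. Immune markers summed to 29.7 to 43.8 CPM in labelled knockouts and 35.8 to 50.6 CPM in controls, with Cd79a, a B cell receptor subunit, the 1 called of 6 (log2 −3.76). Without Cd79a the immune sum was 29.7 to 42.5 CPM in labelled knockouts and 21.3 to 35.6 CPM in controls. Mesenchymal markers summed to 446 to 579 CPM in labelled knockouts and 306 to 397 CPM in controls. Without Rgs5 that sum was 234 to 344 CPM in labelled knockouts and 190 to 250 CPM in controls, with overlap. Rgs5 (log2 0.61) and Dcn (0.92) were the 2 higher of 9 tested, a count that ran from 0, without labelled knockout 2 or control 3, to 4, without control 1, with the replicate block or by DESeq2. Rgs5 was not called without labelled knockout 2 (edgeR adjusted p = 0.0535), labelled knockout 3 (0.0592) or control 3 (0.057) or with an acinar covariate (0.0729), with a range of 9.21e-04 to 0.0729. No marker of these 7 cell types was at 0 in every library.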

How the data were processed

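RNA was sequenced from islets of 3 labelled knockout and 4 control mice, and Glis3 binding was mapped in 1 sample. The authors deposited whole-number counts per gene without normalisation, with mm10 spans per the file header. Per the submitters' processing notes the tools for RNA were STAR 2.5, featureCounts 1.5.0-p1 and DESeq2, with settings, annotation and strand option not given in the sources used here. Peaks were deposited by the authors as 200 bp intervals without scores; HOMER 4.9.1, Bowtie 1.2, cutadapt 1.2.1, bedtools 2.24.0 and Picard 1.110 stand in those notes, without thresholds. The input library was not analysed here.

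Genes were kept with filterByExpr, scaled with TMM factors and tested with edgeR 4.0.16 (quasi-likelihood F test, robust, R 4.3.3). Benjamini-Hochberg adjustment ran over all 14529 tested genes, calls were made at an adjusted p under 0.05, and the 988 rows that repeat a symbol were kept apart. The SE is the absolute log2 fold change over the square root of F. Fits were tested on simulated data. Ratios and shares of raw counts were compared by exact 2-sided permutation tests. The p of these tests is 2 times the smaller tail. Libraries of 1 group were no copies of each other (chi-square per degree of freedom 23.4 to 95.4). Intervals cover counting error only, since reads carry no molecular identifiers.

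Replicate numbers were taken from the labels. Libraries with the same number deviated together from their group means (r = 0.2, 0.144 and 0.131 for numbers 1, 2 and 3, over genes of at least 1 CPM). The numbers may therefore pair the libraries, though no statement in the labels says so. Control 4 has no labelled knockout of its number, so the blocked fit draws no group difference from it. Of the 9 pairs with different numbers, labelled knockout 3 with control 4 reached r = 0.184, above the same-number values of numbers 2 and 3. The others ran from −0.213 to 0.0282, so the pairing is uncertain. The fit without the block is the one reported, and the blocked value stands beside the result of a named gene where it changes the call.

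The members, the 15 gene lists and the tests were chosen with earlier results of these data known. Named genes were the members, Glis3, genes within 100 kb, Gcg, Sst and Ppy, up to 4 called genes per list with the smallest p and no overlap of CPM, and the 5 nearest profiles per member. A list gene named only as a value that did not pass, or beside a count, was chosen after its values were seen. The values of 1 named gene are not reported here. The alternatives tried were RLE factors, library size alone, scaling without the members or the 10 most abundant genes, no low-count filter, 1 CPM in 3 libraries, DESeq2 1.42.0, limma-voom 3.58.1, the replicate block, an acinar covariate, an adjusted p under 0.01, leaving out each library, medians for the ratios and share, a share over tested genes, and other peak windows.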

Additional observations from a re-analysis of the deposited data

Results flagged for a closer look

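In 62 checks of the 4 control libraries, 3 genes had a value far from the others, where chance alone gives about 1 in 20. The count of 3 is therefore about what chance alone gives. The measure is the gap to the nearest other value over the whole range. Gsto1, the gene nearest to Iapp in profile, stood at 14.1 CPM in 1 control against 10.9 to 11.4 CPM in the others (0.857). Cd79a stood at 20.5 CPM in 1 control against 14.5 to 15.1 CPM in the others (0.899). Pyroxd1 stood at 2.20 CPM in 1 control against 4.63 to 4.94 CPM in the others (0.886). No member, share or ratio was among them.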

How the results depend on the processing

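Ins1, Ins2 and Iapp kept their direction and call in all 18 alternatives each. Leaving out each library in turn gave log2 changes of −1.715 to −1.095 for Ins1, −1.897 to −1.401 for Ins2 and 1.70 to 1.95 for Iapp. With the replicate number as a block they were −1.189 (edgeR adjusted p = 1.34e-04), −1.485 (4.89e-05) and 1.918 (1.06e-06). The block ended the calls of Glis3 and Bcl11a, and changed no other call among the named genes as defined above. Ero1lb, Neurod1, Rfx6 and Dcn were outside that set, so their single calls were not followed over the alternatives. Without 1 library the log2 difference in ratio ran from 0.2033 to 0.344 for Ins1 to Ins2, 3.217 to 3.587 for Iapp to Ins2 and 2.928 to 3.384 for Iapp to Ins1, and the difference in summed share ran from −18.07 to −13.66 percentage points. The same-number differences gave 0.2963, 3.404, 3.108 and −13.78, each with an exact p of 0.25, the smallest that 3 pairs allow.

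Of all tested genes, 2031 were called (763 lower, 1268 higher). Scaled by library size alone, 324 were lower, so the lower share of calls was 14.9% against 37.6%, and the median of all genes moved to 0.175 from 0.0065. With the acinar covariate 473 were lower. At an adjusted p under 0.01, 1067 were called (336 lower, 731 higher), and 34 against 53 list genes. Leaving out 1 library gave 1475 to 1850 calls. Leaving out 1 library gave −0.2763 to 0.6487 for Pyroxd1 and −0.08306 to 0.2273 for Recql. Pyroxd1 turned to −0.008614 with the replicate block and −0.28 without labelled knockout 1. Recql turned to −0.008256 with the acinar covariate, −0.083 without labelled knockout 3 and −0.012 without control 3. The cause was not tested. Within 10 kb the peaks numbered 1 for Ins1, 1 for Ins2 and 3 for Iapp, and within 500 kb 14 for Ins2 and 17 for Iapp.

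At 400534 or more counts per library, depth does not limit the values of the members. The limits are 3 and 4 mice, an unchecked deletion, no Cre-only group and 1 binding sample without scores.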
